A study of Homo sapiens with 8 samples.

Results

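KRT80 and 9 further keratin genes (KRT7, KRT8, KRT18, KRT19, KRT20, KRT17, KRT23, KRT81 and KRT86) were followed across 8 two-colour expression arrays. The members were the probes carrying one of these 10 gene names in the scanner files, which gave 14 of 58201 probes and 10 of 43317 gene names. The arrays covered HCT116, a human colorectal cancer line, and PANC-1, a human pancreatic cancer line, with 4 arrays each. In HCT116 the Cy5 channel held RNA of cells transfected with the 5p or the 3p strand of miR-139 or of miR-143. In PANC-1 it held RNA of cells given the 5p or the 3p strand of miR-30a, miR-30c-5p, or the 3p strand of the miR-30c-2 precursor. The Cy3 channel held mock RNA of the same line, which the labels describe as untransfected and the study's methods describe as cells given no precursor. The question addressed was whether other keratins moved with KRT80, which the study had followed up after miR-139-3p transfection.

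Keratins are the intermediate filament proteins of epithelial cells. A filament is built from pairs of a type I (acidic) and a type II (basic) keratin, so a cell makes members of both types. KRT8 (type II) with KRT18 (type I) form the basic pair of simple epithelia such as the intestinal lining and the pancreatic ducts, where KRT7 (type II), KRT19 and KRT20 (type I) are added according to the tissue. KRT17 is a type I keratin of basal and wound-edge epidermis, KRT23 is a type I keratin, and KRT81 and KRT86 are type II keratins of hair. KRT80 is a type II keratin that lies next to KRT7 at the edge of the type II cluster on chromosome 12. A miRNA pairs with its targets mainly through the seed, bases 2 to 8 of the mature strand.

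The mature sequences (RefSeq, GRCh38.p14) are shown with the seed in capitals, because the seed is what sets 1 transfection apart from another.
miR-139-5p: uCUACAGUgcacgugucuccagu
miR-139-3p: uGGAGACGcggcccuguuggagu
miR-143-5p: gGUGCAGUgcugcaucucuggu
miR-143-3p: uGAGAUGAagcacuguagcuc
miR-30c-5p: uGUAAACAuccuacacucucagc
miR-30a-5p: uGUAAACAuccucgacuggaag
miR-30c-2-3p: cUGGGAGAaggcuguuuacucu
miR-30a-3p: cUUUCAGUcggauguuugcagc
miR-30c-5p and miR-30a-5p shared the seed GUAAACA, and the other 6 seeds differed from it and from each other.

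Each miRNA was on 1 array, so no value against mock carries an error across cultures and no test was possible. Changes are given as the log2 ratio of transfected over mock, and genes were called lower or higher where this was at least 1 away from 0, a 2-fold difference. Detection on an array required a probe well above background in 1 channel or both. The spread between spots of 1 probe on 1 array had an SD of 0.0393 to 0.0646 on the log2 scale over 300 probes printed 10 times each, and it does not include differences between cultures. The arrays shared 1 slide and 1 scan, with the HCT116 arrays in slide column 1 and the PANC-1 arrays in slide column 2, so line and column cannot be told apart. Dyes were not swapped, so a dye effect cannot be told apart from transfection. On 7 of the 8 arrays the genes whose probe held the complement of the seed had a lower median than the other genes, with differences of -0.0852 to -0.0208. For the hybridisation labelled miR-143-3p their median was higher by 0.0226. That is about the size of the smallest difference on the other arrays (-0.0208), and no spread was computed. The comparison therefore cannot decide whether the label is right, and values there are given for the hybridisation labelled miR-143-3p. The mock RNAs carried the markers of the lines: EPCAM, an epithelial adhesion gene, had a mean mock level of 12.45 in HCT116 and 8.02 in PANC-1, and vimentin (VIM) had 6.61 and 15.48. The intestinal gene VIL1 and the mesenchymal gene FN1 were not well above background in the mock RNA of either line.

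KRT80 was lower than mock on 3 of the 4 HCT116 arrays and higher than mock on all 4 PANC-1 arrays. Its probe lies on chr12:52563485-52563544 (hg19, minus strand) and was well above background in both channels of all 8 arrays. With miR-139-5p the log2 level was 7.61 in mock and 6.67 in transfected cells. It was 7.52 and 6.41 after miR-139-3p transfection, and 9.61 and 8.47 after miR-143-5p transfection. These 3 arrays had log2 ratios of -0.94, -1.12 and -1.14, or 1.92-fold, 2.17-fold and 2.21-fold below mock. For the hybridisation labelled miR-143-3p the mock level was 9.66 and the transfected level 10.06, a log2 ratio of 0.41. In PANC-1 its ratio reached 1.43 after miR-30c-5p, 0.78 after miR-30c-2-3p, 0.74 after miR-30a-5p and 0.45 after miR-30a-3p. The miR-30c-5p value was the only one of these 4 past 2-fold, and 33 of 20887 detected genes were higher on that array. With miR-139-3p, 427 of 20708 detected genes were lower than KRT80, against 133 of 20497 with miR-143-5p and 52 of 20443 with miR-139-5p. The KRT80 ratios on the miR-139 arrays depended on how dim signal was treated: without background correction they were -1.29 and -1.61, and as the scanner software computed them -1.66 and -2.19, since the offset of 50 used here pulls ratios of dim spots towards 0.

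**Figure D1:**
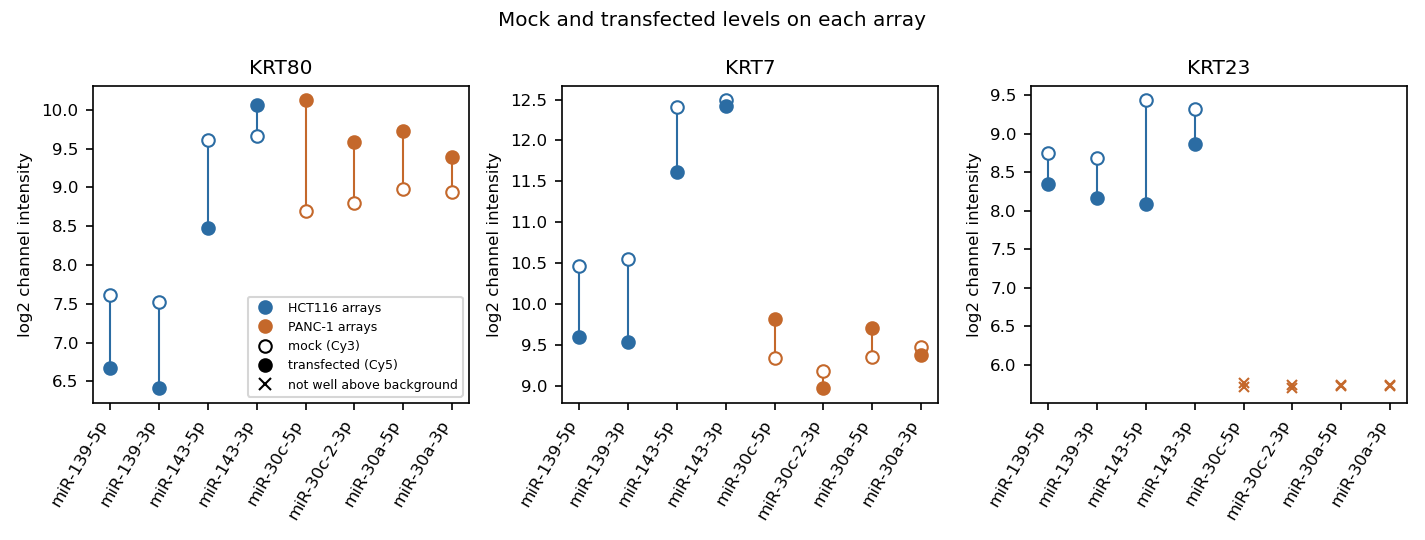
Log2 channel levels (y axis) of KRT80, KRT7 and KRT23 on each of the 8 arrays (x axis, named by the transfected miRNA), with mock (Cy3) as open and transfected cells (Cy5) as filled circles and crosses where the spot was not well above background. The KRT80 mock level was 7.52 to 7.61 on the miR-139 arrays and 9.61 to 9.66 on the miR-143 arrays, and KRT7 shows the same step.

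The mock level of KRT80 itself differed between the HCT116 arrays by more than any log2 ratio of KRT80 on the same scale. Mock RNA beside miR-139 had a mean log2 level of 7.57 and mock RNA beside miR-143 had 9.63, a 4.19-fold difference, while the mock channels on the 2 arrays of 1 precursor lay within 0.09 of each other. The transfected level with miR-143-5p (8.47) was thus 0.91 above the mean mock level beside miR-139. KRT7, the simple epithelial type II keratin, had the same step: 10.46 and 10.55 beside miR-139, and 12.41 and 12.49 beside miR-143, a 3.85-fold difference. KRT80 and KRT7 were 2 of 9 members at least 2-fold lower beside miR-139, a direction in which 0.791% of all 19081 genes passed, and no member was 2-fold higher there, where 0.335% of all genes passed. Of the 19081 genes, 11 had a larger drop than KRT80 and 17 a larger drop than KRT7. The other members went the same way by less: KRT86 was lower beside miR-139 by 1.81-fold, KRT8 by 1.65-fold, KRT23 by 1.58-fold, KRT19 by 1.56-fold and KRT18 by 1.27-fold. KRT81 differed by 0.08 on the log2 scale, within the 0.28 between its own mock channels beside miR-143, and KRT20, close to background, was higher beside miR-139 by 0.18. In all, 8 of 9 members were lower beside miR-139, with a median difference of -0.66 beside 0.01 over all genes, of which 48.2% were lower. The lineage markers did not move as a set. The epithelial markers CDH1 and CLDN7 moved with the keratins, from 8.71 and 9.94 beside miR-139 to 9.51 and 10.53 beside miR-143. EPCAM was at 12.39 and 12.51. The mesenchymal markers VIM, ZEB1 and SPARC went from 7.09, 6.75 and 6.45 to 6.14, 6.45 and 6.14. In contrast, the mesenchymal marker AXL rose from 8.77 to 9.59. The epithelial markers ESRP1 and CDX2 fell from 7.6 and 8.22 to 7.49 and 8.0. The part of these markers in the keratin difference was not tested. The labels do not say whether the mock RNAs came from separate cultures.

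**Figure D2:**
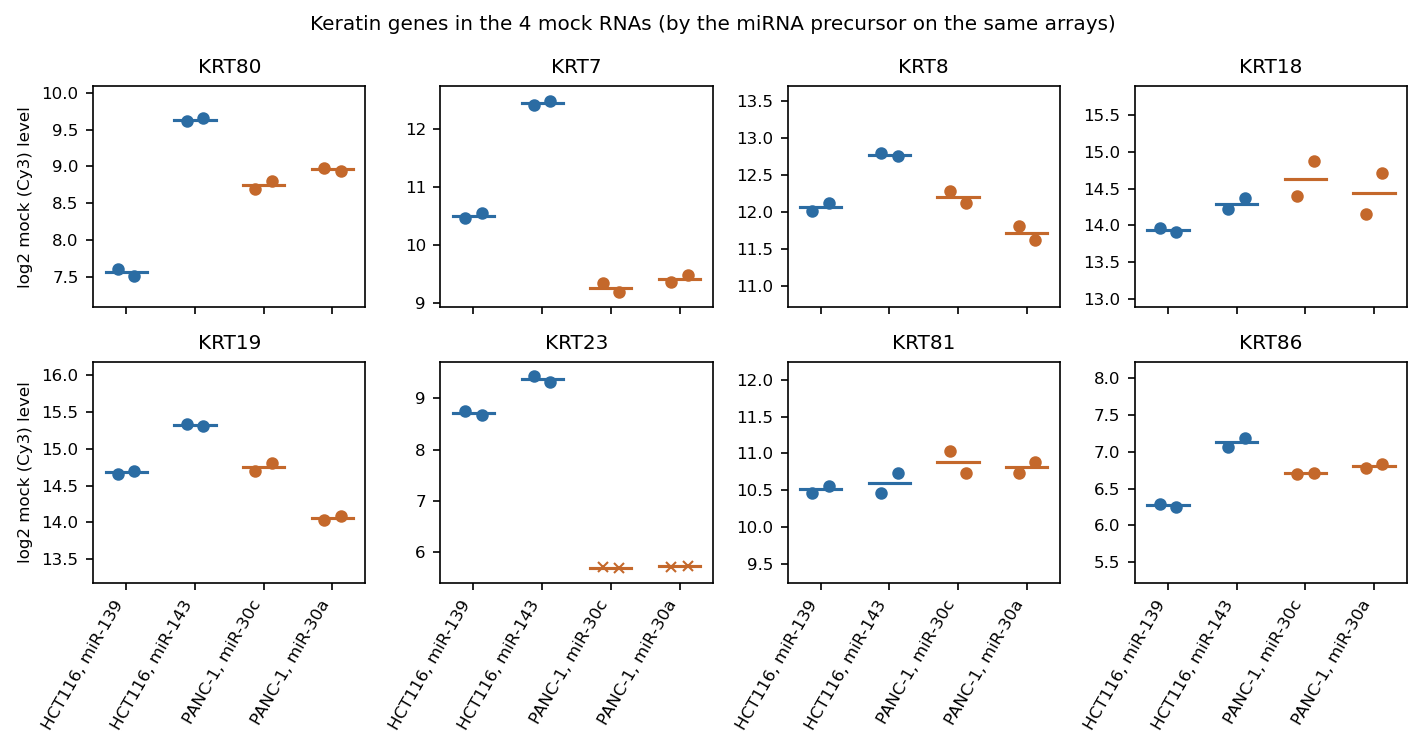
Log2 mock (Cy3) level (y axis, a range of at least 3 log2 units in each panel) of 8 keratin genes in the 4 mock RNAs (x axis), 1 point per array and a line at the mean of the 2 arrays, with crosses where the gene was not well above background in either mock RNA of the line. KRT80 and KRT7 show the widest step between the 2 HCT116 mock RNAs, and KRT23 is at background in PANC-1.

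The 2 PANC-1 mock RNAs were closer. No member was 2-fold apart between them, where 0.152% of all genes were lower and 0.0683% higher beside miR-30c. KRT80 was at 8.69 and 8.80 beside miR-30c and at 8.98 and 8.94 beside miR-30a, and KRT7 differed by 0.16 between the mock RNAs. The widest PANC-1 difference among the members was in KRT19, which was 1.62-fold higher beside miR-30c, followed by KRT8 at 1.41-fold.

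KRT7 (chr12:52642590-52642649, plus strand) was lower than mock on the same 3 HCT116 arrays as KRT80. With the 5p and 3p strands of miR-139 it was at -0.86 and -1.01, and miR-143-5p gave -0.81, beside -0.06 for the hybridisation labelled miR-143-3p. Of these, miR-139-3p passed the 2-fold rule. In PANC-1 it was at 0.48 and 0.36 with the 5p strands of miR-30c and miR-30a, and at -0.21 and -0.10 with the 3p strands, so it had the sign of KRT80 on 5 of 8 arrays (median centring turned the miR-30a-3p value to 0.58 and the -0.06 to 0.05). With miR-139-5p, KRT7 had 74 genes below it and KRT80 had 52, of 20443, on an array where few genes moved. KRT7 was ranked 10 of 17403 genes for closeness to KRT80, measured as the root mean square difference of the log2 ratios over the 8 arrays, which was 0.581 for KRT7 and is a description only. KRT86 was ranked 428, and KRT81, KRT8, KRT18 and KRT19 lay between 8899 and 17368.

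The 5 genes closest to KRT80 by this measure were ARF4, TSC22D1, TMEM123, SLC43A2 and F3. ARF4, a small GTPase of Golgi traffic, had the smallest difference, 0.536, with log2 ratios of -1.20 after miR-143-5p and 0.93 after miR-30c-5p, but 0.26 after miR-139-5p. TSC22D1, a leucine zipper regulator of transcription, was at -1.17 with miR-139-3p and -1.33 with miR-143-5p, and F3, the gene of tissue factor, which starts blood clotting, was at -0.79, -1.48 and -1.53 on the 3 HCT116 arrays with lower KRT80. ARF4, TSC22D1, TMEM123 and SLC43A2 were within 0.26 of 0 with miR-139-5p, where KRT80 was at -0.94.

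Along chromosome 12, the genes between and around KRT80 and KRT7 stayed closer to mock than these on the 3 HCT116 arrays with lower KRT80. Within 150 kb of the KRT80 probe the files placed 24 other probes for 18 gene names, 11 of them detected on all 8 arrays. Of these 11, all but the KRT7 probe stayed within 2-fold of mock on every array. KRT7 lay 79.1 kb from KRT80 by probe position, and between them C12orf80 (A_22_P00008937) was at -0.05, 0.06 and 0.09 on the same 3 HCT116 arrays, and LINC00592 (A_21_P0007476) was at 0.06 after miR-139-3p and at -0.42 after miR-143-5p. Beyond KRT7, KRT81 was between 0.16 and 0.38 on the HCT116 arrays and KRT86 between -0.47 and -0.13.

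**Figure D3:**
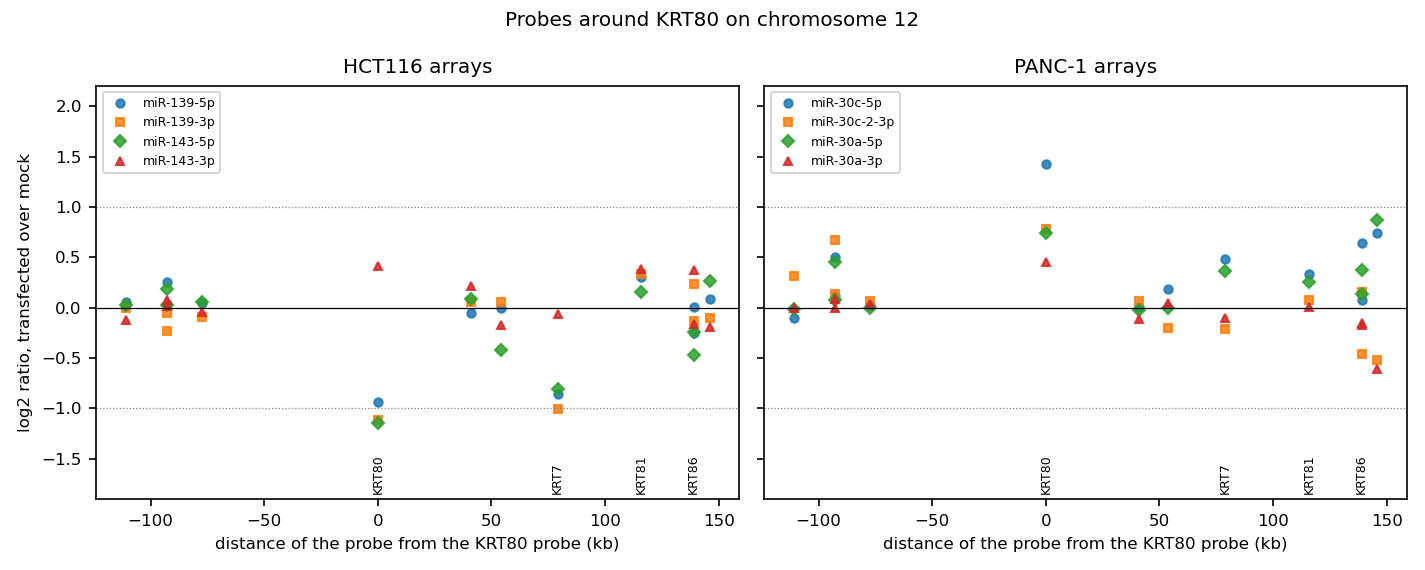
Log2 ratio of transfected over mock (y axis) against the distance of each probe from the KRT80 probe (x axis, kb, increasing along the plus strand), for probes detected on all 8 arrays, with HCT116 arrays on the left and PANC-1 arrays on the right. On the HCT116 arrays the points near or past the dotted 2-fold line belong to KRT80 and KRT7, while on the PANC-1 arrays KRT80 is past it once, with miR-30c-5p.

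KRT23 (chr17:39078962-39079021, minus strand) was the third member 2-fold lower than mock on an HCT116 array. Its log2 mock and transfected levels were 8.75 and 8.34 after miR-139-5p, 8.68 and 8.16 after miR-139-3p, 9.43 and 8.09 after miR-143-5p, and 9.32 and 8.87 for the hybridisation labelled miR-143-3p. The log2 ratios were -0.40, -0.52, -1.34 and -0.46, so KRT23 was below mock on all 4 arrays and 2.53-fold below it with miR-143-5p. A dimmer KRT23 probe (A_33_P3299761, chr17:39081720-39081779) went the same way, at -0.10, -0.24, -0.78 and -0.44. In PANC-1 neither channel was well above background on any array, so no ratio is given.

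Counted over the members, 9, 9, 8 and 9 of the 10 genes were detected on the 4 HCT116 arrays in the order of the plots. With miR-139-5p no member was 2-fold lower, where 0.201% of all detected genes were, and none was higher, where 0.0587% were. With miR-139-3p 2 members were lower, KRT80 and KRT7, beside 2.82% of all genes, and none was higher, beside 2.11%. With miR-143-5p 2 members were lower, KRT80 and KRT23, beside 1% of all genes, and none was higher, beside 0.356%. Under median centring 1 was lower (KRT23) and 1 higher (KRT18, at 1.18), with KRT80 at -0.95. For the hybridisation labelled miR-143-3p no member was past 2-fold, beside 0.925% of all genes lower and 0.517% higher. The median over the detected members was -0.17, -0.13, -0.15 and -0.06 on these arrays, and that over all detected genes was 0.00 to 0.01.

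The remaining members stayed within 2-fold of mock in HCT116 with loess and the offset of 50. KRT19, the smallest type I keratin of ducts and gut, was slightly above mock on all 4 arrays, at 0.22 to 0.38, and KRT81 at 0.16 to 0.38. KRT8 stayed between -0.18 and 0.16. KRT18 was at -0.14 and -0.03 with the 5p and 3p strands of miR-139 and at -0.32 for the hybridisation labelled miR-143-3p, but miR-143-5p gave 0.68, opposite to KRT80, and 1.18 under median centring. KRT86, a dim probe with mock levels of 6.25 to 7.19, was at -0.47 to -0.13. The sign of the KRT8 and KRT18 values with miR-139-5p turned under median centring, to 0.32 and 0.28, as did that of KRT18 with miR-139-3p, to 0.02.

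**Figure D4:**
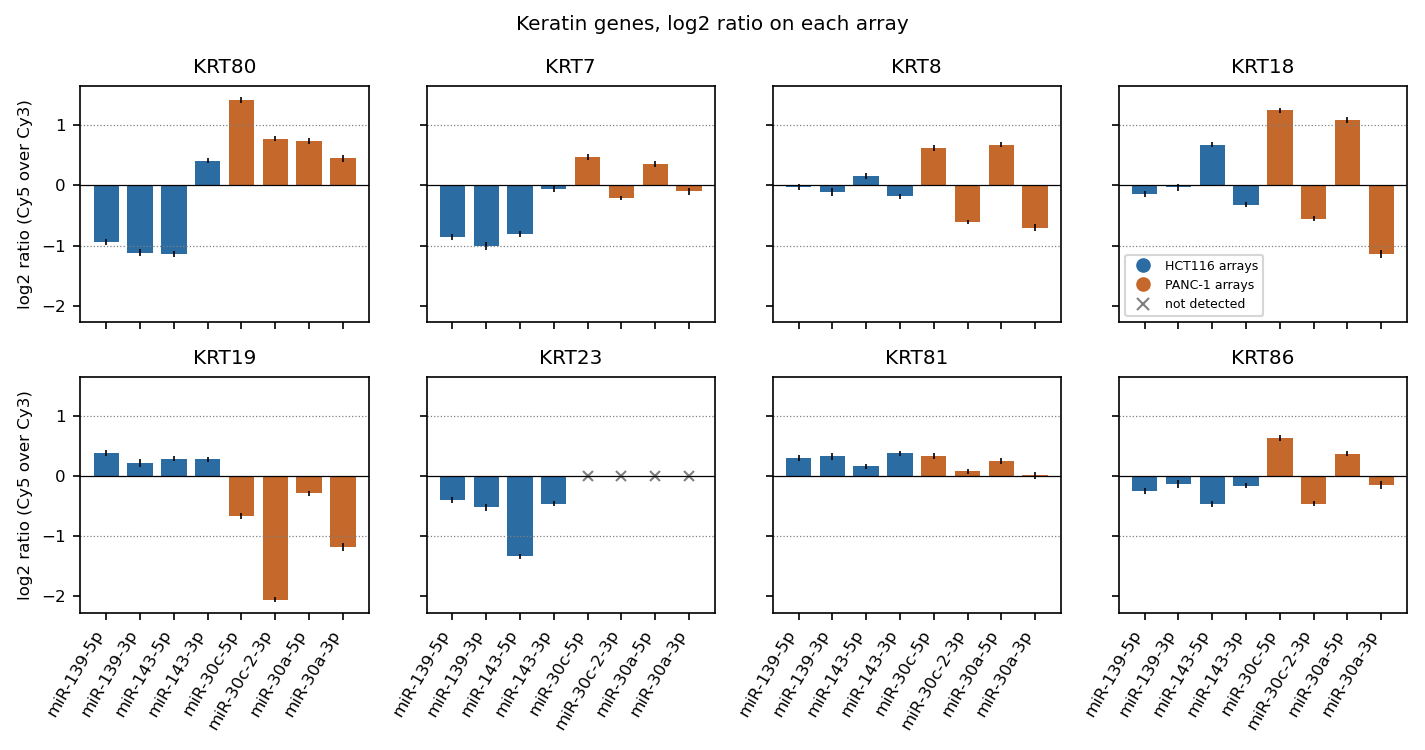
Log2 ratio of transfected (Cy5) over mock (Cy3) for the 8 keratin genes detected on at least 4 arrays (y axis, shared) on each array (x axis), with bars for the single array, error bars for the SD between spots of 1 probe on that array (0.0393 to 0.0646), dotted lines at 2-fold and crosses where the gene was not detected. KRT80 and KRT7 are below 0 on the first 3 HCT116 arrays, and in PANC-1 the 5p strands lie above 0 for KRT8 and KRT18 while the 3p strands lie below 0 (KRT8 with miR-30a-3p turned to 0.10 under median centring).

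In PANC-1 the pair of simple epithelial keratins, KRT8 and KRT18, took opposite directions with the guide and passenger strands, although KRT8 with miR-30a-3p turned to 0.10 when arrays were centred on their median. KRT18 had log2 mock and transfected levels of 14.40 and 15.65 with miR-30c-5p and of 14.16 and 15.25 with miR-30a-5p. It had 14.87 and 14.32 with miR-30c-2-3p and 14.71 and 13.56 with miR-30a-3p. The log2 ratios of KRT18 were 1.25 and 1.09 with the 5p strands and -0.55 and -1.14 with the 3p strands. Median centring took these 3p values to -0.09 and -0.19, short of 2-fold, and the miR-30a-5p value was 0.97 as the scanner software computed it and 0.99 as the median over probes. KRT8 had the same order with smaller values, 0.62 and 0.68 for the 5p strands of miR-30c and miR-30a and -0.61 and -0.70 for the 3p strands. With the brighter KRT18 probe, mock channels were lower beside the 5p strand than beside the 3p strand of the same precursor, by 0.47 and 0.54. This was the widest such gap among the members. The other KRT18 probe (A_24_P42136) had mock levels of 13.26 and 13.28 with miR-30c-5p and miR-30c-2-3p. It had 12.88 and 12.92 with miR-30a-5p and miR-30a-3p. Its log2 ratios were, in the same order, 1.08, -0.60, 0.88 and -1.14.

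KRT19 was below mock on all 4 PANC-1 arrays, opposite in sign to KRT80, but its values with the 5p strands turned above 0 under median centring. Its mock and transfected levels were 14.70 and 14.03 after miR-30c-5p, 14.81 and 12.75 after miR-30c-2-3p, 14.03 and 13.74 after miR-30a-5p, and 14.09 and 12.91 after miR-30a-3p. The log2 ratios were -0.67, -2.06, -0.29 and -1.18, so KRT19 was 4.17-fold below mock after miR-30c-2-3p and 2.27-fold below it after miR-30a-3p. Median centring took the miR-30a-3p value to -0.26, short of 2-fold. With miR-30c-2-3p, 72 of 20703 detected genes were lower than KRT19. Its transfected levels ran from 12.75 to 14.03 and its mock levels from 14.03 to 14.81.

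In counts, 7 of the 10 members were detected on each PANC-1 array. With miR-30c-5p 2 were higher, KRT80 and KRT18, beside 0.747% of all detected genes, and none was lower, beside 0.445%. With miR-30a-5p 1 was higher, KRT18, beside 0.306%, and none was lower, beside 0.263%. With miR-30c-2-3p 1 was lower, KRT19, beside 4.14%, and none was higher, beside 1.71%. With miR-30a-3p 2 were lower, KRT18 and KRT19, beside 1.1%, and none was higher, beside 0.372%. The median over the detected members was 0.62 and 0.37 with the 5p strands of miR-30c and miR-30a, and -0.46 and -0.15 with the 3p strands, while that over all detected genes was 0.01 to 0.02.

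The direction of several PANC-1 values depended on the scaling of the arrays. Loess sets the log2 ratio to 0 on average at each signal strength, and the KRT8, KRT18 and KRT19 spots are among the bright ones. When each array was centred on its median instead, the median of the detected genes moved to 0.21 for miR-30c-5p, 0.15 for miR-30a-5p and 0.30 for miR-30a-3p. With miR-30a-3p, KRT18 then stood at -0.19, KRT19 at -0.26, KRT8 at 0.10 and KRT80 at 1.12, which relative to the median of 0.30 left KRT18, KRT19 and KRT8 below it. KRT19 turned to 0.02 for miR-30c-5p and to 0.29 for miR-30a-5p, and it remained 2-fold lower after miR-30c-2-3p, at -1.65. The members past 2-fold became KRT80, KRT8 and KRT18, all higher, for each of the 5p strands. For miR-30a-3p it was KRT80 alone, higher, in place of 2 that were lower. The signs of KRT80 were the same under every setting tried on all 8 arrays.

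The guide strands miR-30c-5p and miR-30a-5p share the printed seed and were set against different mock RNAs. For these, KRT80 was at 1.43 and 0.74, KRT18 at 1.25 and 1.09, KRT8 at 0.62 and 0.68, KRT7 at 0.48 and 0.36, KRT86 at 0.64 and 0.37, KRT81 at 0.33 and 0.25, and KRT19 at -0.67 and -0.29. With loess, all 7 detected members had the same sign on both arrays, as did 77.9% of 20268 genes. The passenger strands miR-30c-2-3p and miR-30a-3p have different seeds, and with loess the 7 members also had the same sign on both of their arrays, as did 53.7% of 20146 genes. KRT81 was within 0.08 of 0 on these last 2 arrays with loess. Under median centring the signs parted there for KRT8, at -0.28 and 0.10, and for KRT86, at -0.37 and 0.21. KRT7 was then at -0.0 and 0.58, while KRT80, KRT18, KRT19 and KRT81 still had the same sign on both.

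KRT8 and KRT18 were each read by more than 1 probe, and the probes of KRT8 disagreed in HCT116. The KRT8 probe used above (A_23_P14072, chr12:53291026-53291085, minus strand) was the brightest. With miR-143-5p it was at 0.16, while A_24_P67395 (chr12:53294461-53294995, a span longer than its 60 bases) was at 0.69 and A_33_P3372368 (chr12:53343241-53343300) at 0.73. For the hybridisation labelled miR-143-3p these 3 probes were at -0.18, 0.21 and 0.27. A_33_P3372368 stands for a noncoding KRT8 transcript and lies on the strand opposite to KRT18 close to the KRT18 probes, and RefSeq lets the 2 gene bodies overlap by 1006 bases, so its values are uncertain as a measure of KRT8. In PANC-1 all 3 KRT8 probes were above 0 with the 5p strands (0.32 to 0.68) and below 0 with the 3p strands (-0.70 to -0.13). The KRT18 probes A_24_P42136 (chr12:53345577-53345636) and A_32_P151544 (chr12:53346116-53346554) were within 0.21 of each other on every array, and with miR-30a-5p the first was at 0.88, short of 2-fold. KRT8 and KRT18 have many processed pseudogenes, and KRT81, KRT83 and KRT86 are close paralogs, so a probe could take signal from near-identical transcripts. The longest run of identical bases between a probe of a member and any probe of another keratin gene was 13. Probes were compared with probes, not with transcripts, and pseudogenes were left out. The comparison therefore cannot show whether a probe takes such signal.

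**Figure D5:**
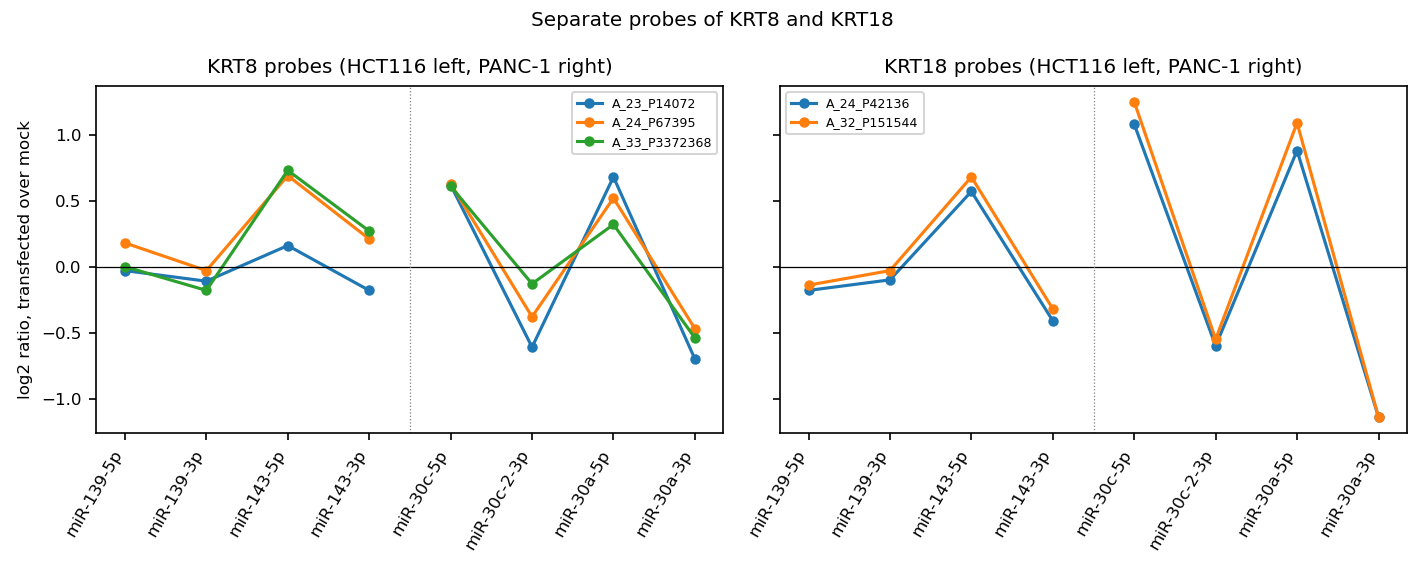
Log2 ratio of transfected over mock (y axis) for each of the 3 probes of KRT8 and the 2 probes of KRT18 on the 8 arrays (x axis, HCT116 left of the dotted line, PANC-1 right of it). The KRT18 probes run together, and the KRT8 probes part with miR-143-5p (0.16 against 0.69 and 0.73) and run together in sign in PANC-1 with loess normalisation.

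The member probes were searched for the complement of each seed (bases 2 to 8, or bases 2 to 7 followed by A, on the transcript strand). No KRT80, KRT7, KRT18 or KRT19 probe held the heptamer of any of the 8 miRNAs, and 4 matches were found in KRT8, KRT23 and KRT86. They are shown, 30 bases each with the heptamer in capitals, because a match inside a probe is the only part of these transcripts that the files let one read.
KRT8, probe A_33_P3372368, for miR-139-3p: tccggttctcgGTCTCCAggctcctcactc
KRT23, probe A_33_P3299761, for miR-143-3p: catgcaagagaTCATCTCccactatgagga
KRT23, probe A_33_P3299761, for miR-30c-2-3p: gcaagagatcaTCTCCCActatgaggagga
KRT86, probe A_23_P363769, for miR-30a-3p: ctcaagagcttCTGAAAAactaatgactct
The KRT8 probe was at -0.18 with miR-139-3p, the KRT23 probe at -0.44 in the hybridisation labelled miR-143-3p and KRT86 (chr12:52702840-52702897) at -0.15 with miR-30a-3p, all within 2-fold of mock. The KRT23 probe was at background in PANC-1. Of all 58201 probes, 0.634% held a heptamer for miR-139-3p and 1.07% one for miR-143-3p, while 0.930% matched miR-30c-2-3p and 1.79% matched miR-30a-3p. The probes cover only a small part of each transcript, so nothing follows from them about sites elsewhere.

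KRT20 and KRT17 were at the edge of detection. KRT20, an intestinal type I keratin (chr17:39032532-39032591), was well above background only in the mock channel beside miR-139, at 6.0 and 5.96, and was not well above background in the transfected cells of either array or on any other array. Its log2 ratios on those 2 arrays were -0.17 and -0.16, but -1.42 and -1.86 as the scanner software computed them. KRT17 (chr17:39776976-39777035) was well above background in 1 channel, the transfected cells in the hybridisation labelled miR-143-3p, at 5.89 beside a mock level of 5.86.

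Between the lines, mock levels of the members were compared over the 4 mock RNAs, 2 of HCT116 and 2 of PANC-1, with limma and Benjamini-Hochberg adjustment over 20850 genes. Of the 9 members tested, 2 passed an adjusted p under 0.05, where 41.5% of all genes did. KRT23 had a mean level of 9.04 in HCT116 and was at background in PANC-1, so it was at least 9.23-fold higher in HCT116. KRT23 and KRT20 entered the test through HCT116 alone. The KRT23 p-value (limma adjusted p = 0.00347) therefore sets a detected level against background and adds no support beyond detection in 1 line. KRT81 was higher in PANC-1 by 1.22-fold (mean 10.84 against 10.56, log2 difference of HCT116 minus PANC-1 of -0.29 ± 0.06 SE, limma adjusted p = 0.0337). KRT7 was 4.41-fold higher in HCT116 on average (2.14 ± 0.71 SE) and did not pass (limma adjusted p = 0.0848), with HCT116 mock RNAs at 10.51 and 12.45 and PANC-1 mock RNAs at 9.26 and 9.42. KRT80 had means of 8.60 and 8.85 (-0.25 ± 0.76 SE, limma adjusted p = 0.817), and its PANC-1 levels of 8.74 and 8.96 lay between the HCT116 levels of 7.57 and 9.63. KRT8, KRT18, KRT19, KRT20 and KRT86 did not pass either, with limma adjusted p from 0.109 to 0.894. With the 8 mock channels and mock RNA as a random block, KRT7 passed (limma adjusted p = 0.00333) and KRT81 did not (limma adjusted p = 0.253). Which HCT116 mock RNA was used set the direction for KRT80 and KRT86. Without the one beside miR-139, KRT80 was higher in HCT116 (0.78, limma adjusted p = 0.0238), as were KRT86 (0.37, limma adjusted p = 0.042), KRT7 and KRT23. Without the one beside miR-143, KRT80 was lower in HCT116 (-1.28, limma adjusted p = 0.0114), as were KRT86 (-0.49, limma adjusted p = 0.0251), KRT18 and KRT81, while KRT7 and KRT23 were higher. Without the PANC-1 mock RNA beside miR-30c none passed, and without that beside miR-30a KRT23 alone passed. The lone mock RNA was then taken to vary like the other line's. In bulk RNA, fewer cells making a keratin and less RNA per cell cannot be told apart.

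Among the 45 other keratin genes on the arrays, 11 to 21 were detected per array. With miR-139-3p 2 of 17 were lower, beside 2.82% of all detected genes, the hair keratin KRT32 at -1.71 and the basal epidermal keratin KRT15 at -1.62, and with miR-143-5p 1 of 19, beside 1%, KRT32 again at -1.10. For the hybridisation labelled miR-143-3p 1 of 21 was higher, beside 0.517%, KRT6B, an epidermal keratin of wound repair, at 1.22. As the scanner software computed them, the miR-139-3p value of KRT32 was -3.04 and the KRT6B value 2.36. In PANC-1 none of the 11 to 15 detected was past 2-fold, and the medians on the 8 arrays were -0.06 to 0.06, beside 0.00 to 0.02 over all detected genes. KRT83, a hair keratin chosen for mention after its values were seen, ran with KRT8 in PANC-1, at 0.74 and 0.87 for the 5p strands of miR-30c and miR-30a and -0.52 and -0.61 for the 3p strands. Between the HCT116 mock RNAs 1 of 18 was 2-fold apart, beside the 0.791% of all genes that were lower beside miR-139, KRT34, also named after its value was seen, at 5.83 beside miR-139 and 7.01 beside miR-143.

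Of the desmosome and keratin anchor genes, which tie keratin filaments to the cell surface, 12 to 15 of 19 were detected per array. ITGB4, the hemidesmosome integrin beta chain, was lowest, at -2.37 with miR-143-5p, and was also at -1.15 with miR-139-3p and -1.17 with miR-30c-2-3p, the last of which was -4.16 as the scanner software computed it. Its partner ITGA6 was at -1.20 with miR-139-3p and -1.01 with miR-30a-3p, and PKP3, a desmosomal plaque protein, and PLEC, the linker plectin, were at -1.39 and -1.24 with miR-30c-2-3p. The number that were lower was 2 of 14 with miR-139-3p, 1 of 15 with miR-143-5p, 3 of 12 with miR-30c-2-3p and 1 of 12 with miR-30a-3p, beside 2.82%, 1%, 4.14% and 1.1% of all detected genes. No gene of this list was 2-fold higher on any array, and its medians were -0.14 to 0.01. DSP, which binds keratin at the desmosome, was between -0.29 and 0.38. ITGA6, PLEC and DSP were named after their values were seen.

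Of 19 cornified envelope and squamous differentiation genes, 7 to 12 were detected per array. GRHL3, a transcription factor of epidermal barrier formation, was 2-fold higher in both lines, at 1.03 after miR-139-3p (3.27 as the scanner software computed it) and 1.59 after miR-30a-3p, and no other gene of the list was past 2-fold. This was 1 of 9 on each of these arrays, beside 2.11% and 0.372% of all detected genes. The mean GRHL3 mock level beside miR-139 was 5.99, close to background, as the lowest mock level well above background with miR-139-3p was 5.83. The medians of the list were -0.04 to 0.28. Of 14 other intermediate filament genes, 9 to 12 were detected. VIM, the mesenchymal filament gene that PANC-1 carried at a mean mock level of 15.48, was at -1.63 and -1.65 with the 5p strands of miR-30c and miR-30a, and at -1.35 and -0.72 with the 3p strands. VIM was below mock both on the 2 arrays on which KRT8 and KRT18 were above it and on the 2 on which they were below it. The medians of this list were -0.21 to 0.20. BFSP1, a lens filament gene, was at 1.25 with miR-143-5p, and LMNB1, a nuclear lamin named after its value was seen, at -1.24 with miR-30a-3p. In this list 1 of 11 was lower with miR-30c-5p, miR-30a-5p and miR-30c-2-3p, beside 0.445%, 0.263% and 4.14% of all detected genes. With miR-30a-3p 1 of 12 was lower, beside 1.1%, and with miR-143-5p 1 of 9 was higher, beside 0.356%.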

How the data were processed

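The data were 8 Agilent two-colour arrays of 60-base probes, 4 for HCT116 and 4 for PANC-1, with Cy5 for 1 transfected miRNA and Cy3 for mock. Per the file headers, the scanner software (Agilent Feature Extraction 11.5.1.1, design 072363, probe positions on hg19) gave spot intensity and local background intensity per channel, well-above-background and outlier calls, and a log10 ratio of its own processed signals. The authors' processed values were the same log10 ratios, which differed from the scanner output by at most 0. Where the deposited log10 ratios were used, they were turned into log2. Groups came from the labels, and 0 columns were left without a sample.

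Intensities were background-corrected by normexp (offset 50), normalised by loess within arrays (control spots at weight 0) and averaged over spots of a probe after outlier spots were left out, using limma (3.58.1) and data.table (1.17.8) in R (4.3.3). Where a gene had several probes, the brightest on average was used. Channel levels were quantile normalised on mean signal between arrays. The 2 mock channels beside 1 precursor were averaged as 1 mock RNA, since they may be the same RNA, which gave 4 mock RNAs. p-values between lines measure only the spread between these RNAs, except in the fit with mock RNA as a random block, which also uses the spread between channels. A bound ("at least") used the lowest signal among probes well above background. Python 3.11.15 (pandas 2.3.3, numpy 2.4.6, matplotlib 3.10.9) was used for tables and plots. Scripts were tested on simulated data.

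Each array had 60901 spots other than controls for 58201 probes. The share of spots above background was 44.1% to 45.3% for Cy3 and 45.8% to 51.4% for Cy5, and no spot was saturated. The number of arrays limits the precision. Named genes were the 10 members, the 5 genes with the smallest root mean square difference from KRT80 among those detected on all 8 arrays, and from each of 4 gene lists the 2 lowest and 2 highest past 2-fold. The lists were other keratins, desmosome and keratin anchors, cornified envelope and squamous differentiation, and other intermediate filaments. The members and lists were chosen with earlier results of these data known. Alternatives were no background correction, an offset of 1, the scanner log ratio, median centring, no filter on dim probes, the median over probes, quantile normalisation of Cy3, the mock channels with mock RNA as a random block, and each mock RNA or array left out. A genome, 3′ UTR and protein sequences were not used here.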

Additional observations from a re-analysis of the deposited data

How the results depend on the processing

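The number of members at least 2-fold from mock changed under some settings. With miR-139-5p it went from 0 to 1 without background correction or with an offset of 1 (KRT80), and to 2 with the scanner log ratio (KRT80 and KRT20). With miR-139-3p (KRT20 added) and miR-30c-5p (KRT86 added) it went from 2 to 3 with an offset of 1 or the scanner log ratio, and with miR-30c-5p also to 3 with median centring (KRT8 added). With miR-143-5p it was 2 under each setting, but median centring put KRT18, higher, in place of KRT80. With miR-30c-2-3p it went from 1 to 2 with an offset of 1 or the scanner log ratio, which added the dim gene KRT86. With miR-30a-5p it went from 1 to 0 with the scanner log ratio or the median over probes, and to 3 with median centring. With miR-30a-3p it went from 2 to 1 with median centring. The causes were not tested. Among all detected genes past 2-fold, the share that were higher went from 25.3% to 97.7% with miR-30a-3p, from 62.7% to 97.2% with miR-30c-5p and from 26.3% to 66.2% with miR-143-5p under that centring. Of 63 member values on arrays where the gene was detected, 9 changed sign under median centring, 1 under each of no background correction, an offset of 1 and the median over probes, and 0 with the scanner log ratio, and no value past 2-fold did. Leaving out 1 of the 4 mock RNAs, the number of members differing between the lines was 0 to 6 instead of 2, and the HCT116 minus PANC-1 difference ran from -1.28 to 0.78 for KRT80 and from -0.49 to 0.37 for KRT86, negative without the HCT116 mock RNA beside miR-143 and positive without that beside miR-139. KRT81 lost its call without background correction (limma adjusted p = 0.0658) and with mock RNA as a random block (limma adjusted p = 0.253), where KRT7 gained one (0.0442 and 0.00333). The random block fit counted the KRT7 channels partly as replicates. Between the HCT116 mock RNAs the count of members 2-fold apart went from 2 to 3 without background correction (KRT86 added) and was 2 under the other settings, and in PANC-1 it was 0 under each setting. No paired analysis was possible because each miRNA was on 1 array. Depth of signal limits KRT17, KRT20 and KRT86, which were close to background. It also limits KRT80 on the miR-139 arrays, where the transfected levels were 6.67 and 6.41. The KRT80 ratio with miR-139-3p ran from -2.19 to -1.06 over the settings.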
